A study of Arabidopsis thaliana with 12 samples.

Results

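The heat shock proteins and HSFA2 described here are 7 probe sets of the 22746 non-control probe sets on the ATH1 expression array. The platform's table names 2 of them, HSP17.6B (AT2G29500) and ROF2 (AT5G48570). The other 5 were chosen by probe set ID, each given together with its gene, and that table does not list them. They are 247691_at for HSP18.2 (AT5G59720), 252515_at for HSP17.4 (AT3G46230), 260248_at for HSP101 (AT1G74310), 248332_at for HSP90.1 (AT5G52640) and the probe set of HSFA2 (AT2G26150). The gene names of those 5 therefore rest on that pairing alone.

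Heat shock proteins are chaperones that keep other proteins from aggregating and help them refold. Small heat shock proteins hold unfolded proteins, HSP101 pulls them out of aggregates, and HSP90 and its partners finish the folding of client proteins. In Arabidopsis their genes are switched on by heat shock transcription factors, of which HSFA2 is a heat-induced member that prolongs the response. HSFA2 protein can be modified by SUMO, a small protein that the ligase SIZ1 attaches to its targets and that ubiquitin-like proteases remove.

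Seedlings of 4 genotypes in the Columbia background were measured, 12 arrays in all and 3 for each genotype. The wild type is COL. The 3 knock-out lines AB, SIZ1 and SAB carry T-DNA insertions, whose alleles the labels do not give, nor what AB and SAB stand for. All grew without treatment at 23 °C under 100 µE of light on Murashige and Skoog medium with Gamborg vitamins, so no sample had been heated. The study asked how ubiquitin-like proteases influence transcript levels. The labels give an age of 10 days for AB 1 and AB 2 and a harvest date instead for the remaining samples. Whether the 3 samples of each genotype were grown apart is not stated, so the p-values reflect only the spread among these samples, part or all of which may be technical.

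Values are log2 expression values made by the authors with GCRMA, and they ran from 2.02 to 13.21. One probe set of the gene SIZ1 stood at 5.36 to 5.60 in COL, 5.16 to 5.45 in AB, 2.19 to 2.51 in the SIZ1 line and 2.49 to 2.55 in SAB, while the other probe set of this gene lay between 3.84 and 4.63 in SIZ1 and SAB and between 2.91 and 3.27 in COL and AB. Of the marker lists, few loci are named by a probe set alone. The light-harvesting gene LHCB4.1 lay between 12.17 and 12.38 on all arrays, as in green tissue. Its relatives LHCB4.2 and LHCB4.3 lay between 10.24 and 11.43 and between 4.42 and 5.19. The root hair gene EXPA7, the 1 named root marker of 16, stayed near the floor (2.46 to 2.74), and the 2 named seed markers of 17, OLEO3 and AT1G03890, lay between 2.28 and 2.35. Whole seedlings were sampled, so fewer cells of a type and less RNA per cell cannot be told apart.

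Most of the heat shock transcripts were barely above the array's floor in these unheated seedlings. The first quartile of the means of all probe sets was 2.51 and their median 3.51. The mean over all arrays was 2.34 for HSP18.2, 2.55 for HSP17.4, 2.67 for HSFA2, 2.73 for HSP101 and 3.11 for ROF2, all below that median. Only HSP17.6B (3.71) and HSP90.1 (4.84) had means above it. GCRMA pulls the dimmest probe sets towards one floor value, so their changes are understated, and levels of different probe sets are not compared with each other beyond this.

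**Figure D1:**
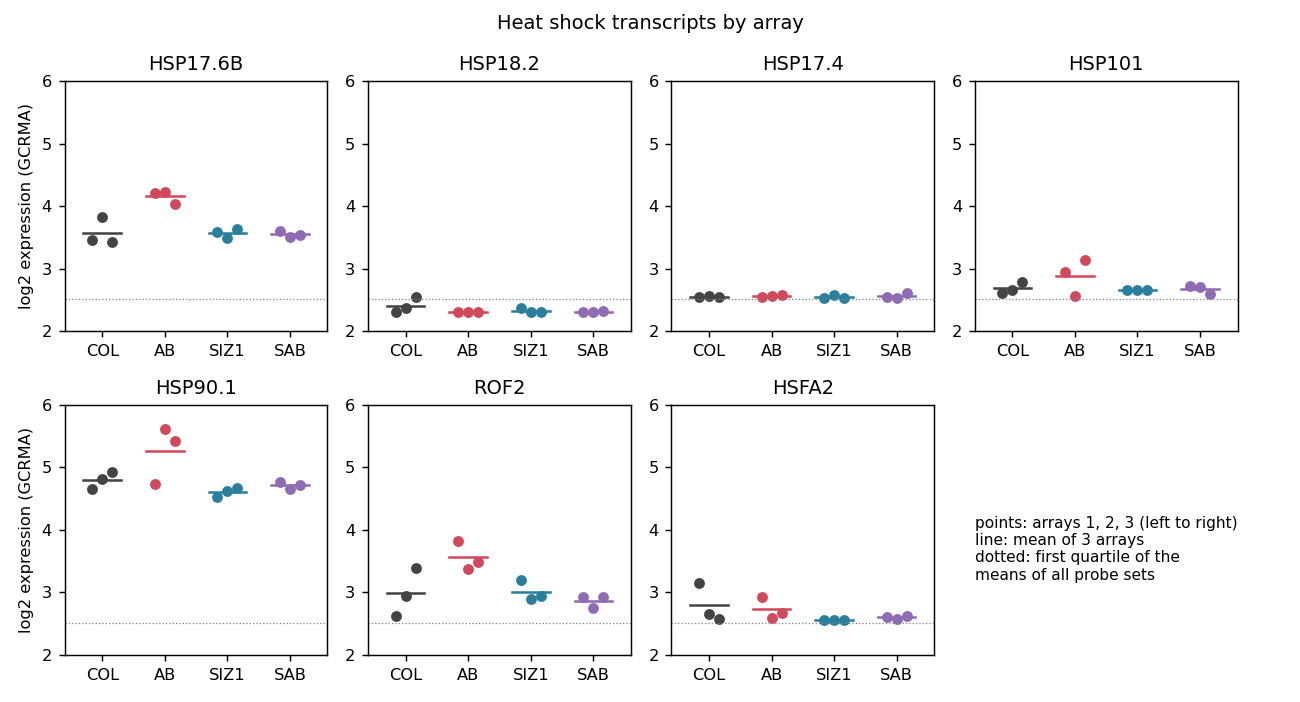
Log2 expression of the 7 probe sets (y axis, GCRMA) on each of the 12 arrays, grouped by genotype on the x axis. Points are single arrays and short lines the means of 3 arrays, and the dotted line marks the first quartile of all probe set means, 2.51. The 3 AB points of HSP17.6B, from 4.04 to 4.23, lie above all the others of that panel, while HSP18.2 and HSP17.4 lie near the dotted line in every genotype.

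Among the small heat shock proteins, HSP17.6B, a cytosolic class I member, was the one member called between genotypes. It stood at 3.46, 3.83 and 3.43 in COL 1 to 3, at 4.20, 4.23 and 4.04 in AB, at 3.59, 3.49 and 3.63 in SIZ1 and at 3.60, 3.51 and 3.54 in SAB. All 3 AB arrays lay above the 9 others, which 1.55% of all probe sets share, and COL, SIZ1 and SAB overlapped each other. The genotype means were 4.16 ± 0.10 in AB, 3.57 ± 0.22 in COL, 3.57 ± 0.07 in SIZ1 and 3.55 ± 0.05 in SAB (SD, n = 3).

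HSP17.6B was higher in AB than in SIZ1 by 0.59 (SE 0.10), which is 1.50-fold, and was called (limma adjusted p = 0.0115). It was the 1 member of 7 called higher in that comparison, where 2.05% of all probe sets were. It was lower in SAB than in AB by a difference of -0.61 (SE 0.10; limma adjusted p = 0.0112), again the 1 member called, against 2.08% of all probe sets called lower. Before adjustment, p was nearly the same between AB and SIZ1 (0.00020, limma) and between AB and COL (0.00022). The adjustment depends on all probe sets of a comparison. Between AB and COL the difference was 0.58, with a 95% interval of 0.36 to 0.81, and it was not called (limma adjusted p = 0.0848). In that comparison 0 of the 7 members and 0.0615% of all probe sets were called (14 probe sets, and 74 when blocked on the replicate number, with no member among them), and 3 members (HSP17.6B, ROF2 and HSP90.1) had an unadjusted p under 0.05, as did 7.75% of all probe sets. Without COL 2, the highest COL array, the AB difference was 0.71 and was called (limma adjusted p = 0.0141).

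SIZ1 and SAB stood close to COL for HSP17.6B, with differences of -0.01 (95% interval -0.23 to 0.22) and -0.03 (-0.25 to 0.20). Set against the AB and SIZ1 changes added together, SAB departed by -0.60 (-0.92 to -0.28) and was not called (limma adjusted p = 0.517). No probe set of the array, 0% of them, was called for that departure or between SAB and SIZ1 by limma, while 1218 and 981 had an unadjusted p under 0.05. Blocked on the replicate number, 12 probe sets, none of them a member, were called for the departure and 0 between SAB and SIZ1. Over the 4 genotypes together HSP17.6B was the 1 member past the threshold (moderated F, limma adjusted p = 0.0160), as were 5.22% of all probe sets. That last call ended without AB 1 (0.0707) or AB 2 (0.0754). The calls of AB against SIZ1 and SAB against AB held without any 1 of the 12 arrays. They came close to the threshold, with limma adjusted p up to 0.0489 and 0.0482, and they share the AB arrays. Without both AB 1 and AB 2, the samples labelled with an age, AB 3 alone, its spread taken to be that of the other genotypes, gave 0.47 against SIZ1 and -0.49 for SAB against AB, each with an SE of 0.15, and neither was called (limma adjusted p = 0.236 and 0.228).

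RNA spiked in at labelling is read by poly-A control probe sets, and these also differed between the arrays. Over 12 such probe sets the mean was 4.71, 4.40 and 4.99 in AB 1 to 3, 4.24, 4.31 and 4.70 in COL, 4.04, 4.18 and 3.79 in SIZ1 and 4.13, 4.10 and 4.42 in SAB. The arrays of AB were thus also high in the controls, although AB 2 lay below COL 3 and SAB 3 there, and their part in the results for AB was not tested. The amount of RNA per array was 739 ng on average in AB, 751 in COL, 727 in SIZ1 and 871 in SAB. It ran from 850 to 894 ng in SAB and from 652 to 812 ng over the other genotypes. RNA amount and the SAB genotype can therefore hardly be told apart. Of the 3 named green tissue markers of 21, LHCB4.2 was lower than in COL in SIZ1 and SAB, with differences of -0.84 and -0.85 (limma adjusted p = 0.0169 and 0.0165). LHCB4.1 was lower in SIZ1, with a difference of -0.19 (0.0280). LHCB4.3 went the other way in SIZ1 and SAB, with differences of 0.21 and 0.07 that were not called (0.580 and 0.944). None of the 3 was called between AB and either of these lines. With RNA amount as a covariate the difference of HSP17.6B between SAB and AB was -0.70 and was not called (limma adjusted p = 0.0814). Its SE was 0.14, against 0.10 without the covariate. The difference between AB and SIZ1 was 0.58 (0.0141). In every such fit given below, the covariate is likewise bound up with SAB.

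The other 2 small heat shock proteins, also of class I, lay at the floor in nearly all samples. HSP18.2 stood at 2.30, 2.37 and 2.55 in COL 1 to 3 and between 2.30 and 2.36 on the 9 other arrays. COL 3 was thus its one array away from the floor, and the differences from COL were -0.10 in AB, -0.09 in SIZ1 and -0.10 in SAB, none called (limma adjusted p = 0.753, 0.531 and 0.462). HSP17.4 lay between 2.53 and 2.61 on all 12 arrays. Its differences in the 7 comparisons ran from -0.0044 to 0.0137, and the 95% intervals stayed within -0.08 and 0.09, at a level where real changes would be compressed. A further probe set is named for the related pair AT1G07400 and AT1G59860 and cannot tell them apart. It read 2.63 to 2.76 in COL and had a mean of 2.86 ± 0.16 (SD, n = 3) in AB, where AB 3, at 2.68, lay inside the COL range, and the difference of 0.17 was not called (limma adjusted p = 0.805). Close relatives among class I genes could share signal on such arrays, and probe sequences were not used here.

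HSP101, the disaggregase that dissolves aggregates together with HSP70, stood at 2.61, 2.67 and 2.78 in COL and at 2.95, 2.57 and 3.14 in AB. It read 2.66 on each SIZ1 array and 2.72, 2.70 and 2.60 in SAB. AB 1 and AB 3 were the highest of all arrays and AB 2 the lowest, so the AB mean of 2.88 ± 0.29 (SD, n = 3) spans the other genotypes. The differences were 0.20 from COL (95% interval -0.07 to 0.46), 0.23 between AB and SIZ1 and -0.21 between SAB and AB, none called (limma adjusted p = 0.857, 0.386 and 0.455). These values turned on single AB arrays. Without AB 2 the last pair became 0.38 and -0.36 and was called (limma adjusted p = 0.0291 and 0.0391), and without AB 3 it became 0.099 and -0.079 (0.815 and 0.854). The difference from COL was 0.35 without AB 2 and 0.068 without AB 3, and was not called in either case. With RNA amount as a covariate SAB against AB was -0.36 and not called (limma adjusted p = 0.467).

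HSP90.1, the heat-inducible cytosolic HSP90, lay well above the floor and varied between the AB arrays. It stood at 4.65, 4.81 and 4.92 in COL, at 4.74, 5.61 and 5.41 in AB, at 4.53, 4.62 and 4.67 in SIZ1 and at 4.77, 4.66 and 4.72 in SAB. AB 2 and AB 3 were above every other array, and AB 1 lay inside the range of COL and SAB. The mean in AB was 5.25 ± 0.46 (SD, n = 3) against 4.79 ± 0.14 in COL, a difference of 0.46 with a 95% interval of 0.05 to 0.88 that was not called (limma adjusted p = 0.554). Nor were 0.65 between AB and SIZ1 or -0.54 between SAB and AB (limma adjusted p = 0.0810 and 0.152). Without AB 1 these were 0.91 and -0.80 and were called (limma adjusted p = 0.00348 and 0.00602), while without AB 2 they were 0.47 and -0.36 (0.221 and 0.397). The difference from COL was 0.72 without AB 1 and 0.29 without AB 2, with no call (limma adjusted p = 0.0511 and 0.959). With RNA amount as a covariate SAB against AB was -0.33 (limma adjusted p = 0.809). SIZ1 and SAB differed from COL by -0.19 (-0.60 to 0.23) and -0.08 (-0.49 to 0.34).

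ROF2, an immunophilin of the FK506-binding family, varied most within the wild type. It stood at 2.63, 2.95 and 3.40 in COL, at 3.82, 3.37 and 3.49 in AB, at 3.19, 2.90 and 2.94 in SIZ1 and at 2.92, 2.74 and 2.93 in SAB. The AB arrays were above SIZ1 and SAB, but COL 3 lay just above AB 2. The mean in AB was 3.56 ± 0.23 (SD, n = 3) against 2.99 ± 0.39 in COL, and the difference of 0.57 (95% interval 0.15 to 0.99) was not called (limma adjusted p = 0.397). SAB was lower than AB by a difference of -0.69 (-1.11 to -0.28), not called with all arrays (limma adjusted p = 0.0732) and called without COL 1 (0.0422) or COL 3 (0.0306). The difference between AB and SIZ1 was 0.55 (limma adjusted p = 0.140), those of SIZ1 and SAB from COL were 0.02 (-0.40 to 0.44) and -0.12 (-0.54 to 0.30), and SAB departed from the added changes by -0.71 (limma adjusted p = 0.848). The departure for HSP90.1 was -0.35 (limma adjusted p = 0.920).

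**Figure D2:**
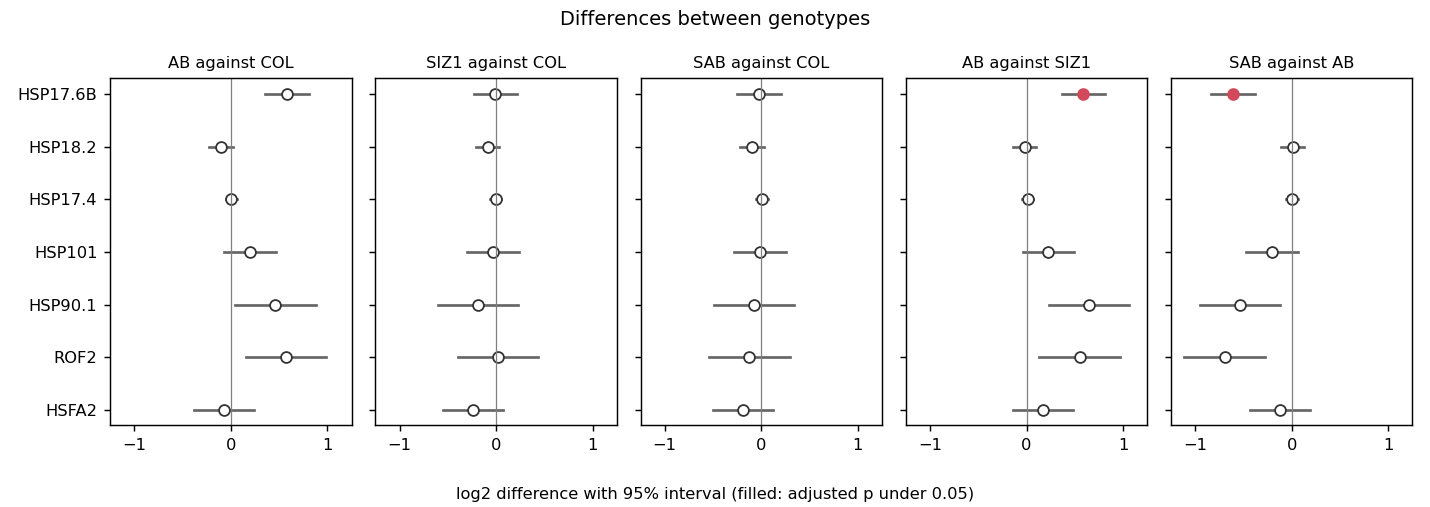
Log2 differences between genotypes (x axis) for the 7 probe sets (y axis) in 5 comparisons, with 95% intervals from limma; filled points have an adjusted p under 0.05. HSP17.6B is filled in the panels of AB against SIZ1 (0.59) and SAB against AB (-0.61), and in the panels of SIZ1 and SAB against COL all 7 intervals include 0.

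HSFA2, the transcription factor, was called in none of the comparisons. It stood at 3.16, 2.66 and 2.57 in COL, at 2.93, 2.60 and 2.67 in AB, at 2.55, 2.57 and 2.57 in SIZ1 and at 2.61, 2.57 and 2.63 in SAB. COL 1 and AB 1 were the highest arrays, and the remaining 10 lay within 2.55 to 2.67. The difference of AB from COL was -0.07 (95% interval -0.38 to 0.24), and it was 0.11 without COL 1. SIZ1 lay below COL on every array, which 26% of all probe sets share, though narrowly (at most 2.566 against 2.572 in COL 3). The SAB arrays overlapped COL. The differences from COL were -0.24 (-0.55 to 0.08) in SIZ1 and -0.19 (-0.50 to 0.12) in SAB. Neither was called (limma adjusted p = 0.490 and 0.614), and without COL 1 they were -0.06 and -0.01.

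Across the set, 5 of 7 differences were above 0 in AB, with a median of 0.20, beside a median of -0.00069 over all probe sets. In SIZ1 1 of 7 was above 0 with a median of -0.03, and in SAB 1 of 7 with a median of -0.08, beside -0.02 and 0.0040 over all probe sets. These comparisons share the COL arrays, so their signs are not independent. Some of the differences were near 0 and changed sign under an alternative. Among them were HSP17.4 in AB (0.0069) and HSP17.4 and HSP17.6B in SIZ1 (-0.0044 and -0.0061). The members were also chosen with earlier results of these data known. No member was called in SIZ1 or SAB against COL, where 3.22% and 3.21% of all probe sets were, and 0 members had an unadjusted p under 0.05 in either, beside 16% and 16.4% of all probe sets.

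The wider heat shock network was read through lists of 94 loci, of which 24 are named by a probe set alone, 2 of them in the set above. Of the other 22, none was called in AB, SIZ1 or SAB against COL, and their median differences were 0.02, 0.02 and 0.0067. No heat shock factor and no HSP90 or HSP100 locus was among those 22. Between AB and SIZ1, 2 were called higher in AB and 0 lower, where 5.22% of all probe sets were called in either direction. Between SAB and AB, 1 was called higher and 1 lower, where 2.35% and 2.08% of all probe sets (4.43% together) were.

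The small heat shock proteins outside the set, 9 loci, did not share one direction. AT2G19310 stood at 7.18, 7.33 and 6.80 in COL, at 7.27, 7.58 and 7.24 in AB, at 6.69, 6.83 and 6.58 in SIZ1 and at 6.91, 6.75 and 6.72 in SAB. It was higher in AB than in SIZ1 by 0.66 (SE 0.14; limma adjusted p = 0.0306), a call that ended without any of AB 1, AB 2 or the 3 SIZ1 arrays (up to 0.0978). AT4G21870 ran the other way, with means of 7.31 in COL, 7.11 in AB, 7.81 in SIZ1 and 7.82 in SAB. All SIZ1 and SAB arrays of AT4G21870 were above those of COL, as for 8.1% and 8.33% of all probe sets, and the differences of 0.50 and 0.51 were not called (limma adjusted p = 0.205 and 0.186). AT5G54660 and AT1G54050 had means between 3.54 and 4.11 in the 4 genotypes. AT5G51440, named after its values were seen, read 2.89, 3.07 and 3.92 in COL and 3.76, 3.87 and 3.54 in AB. COL 3 was again the highest wild-type array, as for ROF2, HSP18.2, HSP101 and HSP90.1 but not for HSP17.6B, HSP17.4 or HSFA2. COL 3 also had the highest poly-A control mean of the COL arrays (4.70).

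Among 8 further co-chaperones, Fes1A, a factor that protects HSP70 and lets it exchange nucleotides, differed most, and it too was named after its values were seen. It stood at 4.19, 4.28 and 4.24 in COL, at 4.41, 4.83 and 4.05 in AB, at 3.67, 3.51 and 3.33 in SIZ1 and at 3.69, 3.84 and 3.60 in SAB. Every array of SIZ1 and SAB lay below those of COL and AB, and 26% and 9.83% of all probe sets lay wholly below COL in those lines. It was higher in AB than in SIZ1 by 0.93 (SE 0.17; limma adjusted p = 0.0155) and lower in SAB than in AB by a difference of -0.72 (SE 0.17; limma adjusted p = 0.0469). The first call ended without AB 1 (0.0513) or SIZ1 2 (0.0531), and the second without any 1 array other than AB 3 or SIZ1 3 (up to 0.139). With AB 3 as the lone AB array they were 0.55 and -0.34, and neither was called (limma adjusted p = 0.125 and 0.398).

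Against COL, Fes1A in SIZ1 differed by -0.73 (SE 0.17), just outside the threshold (limma adjusted p = 0.0510). Blocking on the replicate number gave a call (0.0264), as it was without AB 2 (0.0164) or AB 3 (0.0201). In SAB the difference was -0.53 (limma adjusted p = 0.142).

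ERDJ3B, a J protein of the endoplasmic reticulum that partners the HSP70 there, went the opposite way. It stood at 6.11, 6.29 and 6.04 in COL, at 5.79, 5.83 and 5.96 in AB, at 6.70, 6.61 and 6.05 in SIZ1 and at 6.66, 6.38 and 6.71 in SAB. All SAB arrays were above COL and all AB arrays below it, as for 8.33% and 6.43% of all probe sets. SAB was higher than AB by 0.72 (SE 0.16; limma adjusted p = 0.0396). That call ended under blocking on the replicate number (0.0527) and without any of the COL or AB arrays, SIZ1 2, SAB 1 or SAB 3 (up to 0.124). With RNA amount as a covariate the difference was 0.44 and was not called (limma adjusted p = 0.483). The co-chaperones HOP1, HOP2 and AT4G02450, a p23-type partner of HSP90, differed from COL by -0.08 to 0.14 in the lines.

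The 3 named HSP70 loci, AT3G09440, AT4G16660 and Hsp70-2, differed from COL by -0.26 to 0.25 in the 3 lines, the plastid chaperonin Cpn60beta2 by -0.34 to 0.14, and HSA32, which prolongs acquired heat tolerance, by 0.02 to 0.07 at a level of 2.33 to 2.48. None was called.

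**Figure D3:**
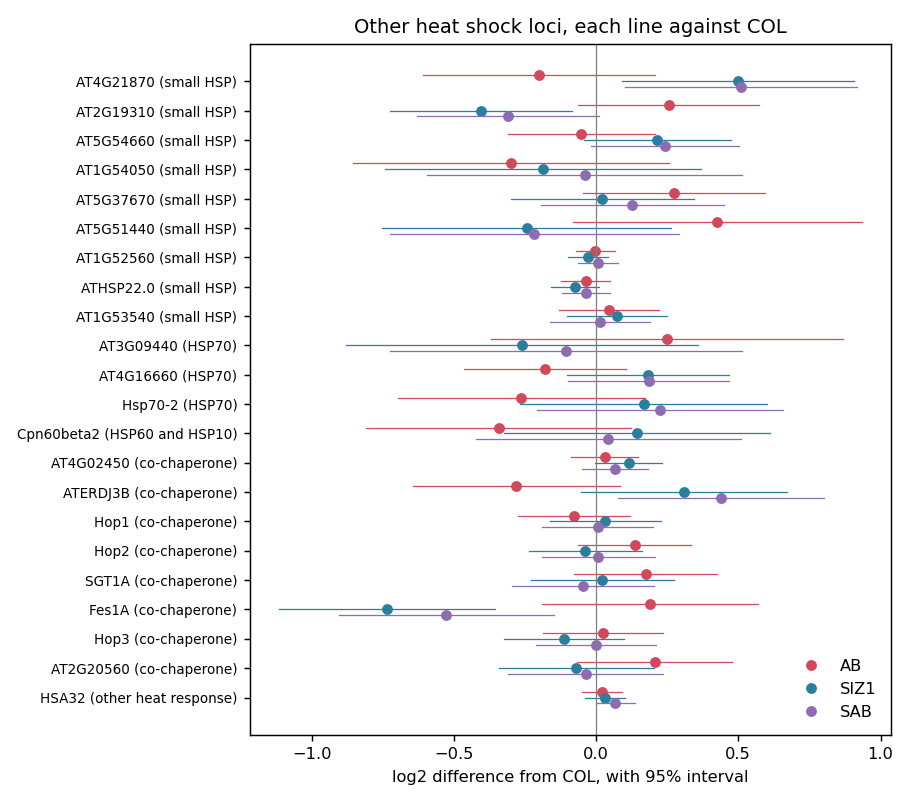
Log2 differences from COL (x axis) with 95% intervals for the 22 other heat shock loci (y axis, with their list), in AB, SIZ1 and SAB. Points of AB scatter on both sides of 0, Fes1A lies at -0.73 in SIZ1 and -0.53 in SAB, and AT4G21870 at 0.50 and 0.51.

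The probe sets whose 12 values were most like the mean standardized profile of the 7 members were sought among 5321 that name 1 gene and range over at least 0.5. The nearest 6 were AT1G31550 (Pearson's r = 0.951), AT3G22750 (0.918), AT3G06070 (0.890), AT2G28490 (0.884), AT2G21820 (0.880) and AT4G07820 (0.877), over arrays that share genotype, labelling and normalization. AT2G28490, of the cupin family of seed storage proteins, read 2.41, 2.60 and 3.79 in COL, 5.22, 4.47 and 4.17 in AB, and 2.41 to 2.51 in SIZ1 and SAB. AT2G21820, annotated as a seed maturation protein, read 3.38, 3.67 and 4.03 in COL, 4.54, 4.82 and 4.55 in AB and between 2.89 and 3.73 in the other lines. AT4G07820, of the PR-1 family, reached 7.36 at most in COL, lay at 8.28 or above in AB and read 6.36 to 6.92 in SIZ1 and SAB. In these 3 the AB arrays were the highest, as the choice by likeness to a profile that is high in AB favours, so no test of them is given. The seed markers OLEO3 and AT1G03890, the 2 named of 17, were not chosen that way. They stayed at the floor in AB, with differences from COL of -0.014 and -0.00035. They lay at the floor on all arrays, where a change would hardly show. The mean of the poly-A controls ran over the arrays much as the mean profile of the members did. Within COL, AB and SAB both ranked the arrays in the same order. Both were highest in AB 3 (4.99 for the controls and 0.996 for the profile). The controls were lowest in SIZ1 3 (3.79) and the profile in SAB 2 (-0.68). The part of the controls and of the 6 probe sets in the pattern of the heat shock transcripts was not tested.

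The neighbours of HSFA2 by the same rule were AT2G27180 (r = 0.973), AT5G49680 (0.950), AT4G22580 (0.930), AT1G20880 (0.919), AT1G06980 (0.916) and AT5G08110 (0.912). In each of these COL 1 was the highest array and AB 1 the second, as for HSFA2 itself. The choice by likeness to HSFA2 favours this, so no test of them is given. AT5G49680, for example, read 3.14 in COL 1, 2.98 in AB 1 and between 2.52 and 2.66 on the other 10. In AT4G22580 and AT1G20880 every SIZ1 array, with highest values of 3.07 and 2.34, also lay below every COL array, which 26% of all probe sets share. For AT1G20880 the gap was narrow and near the floor, 2.340 in SIZ1 3 against 2.347 in COL 3. Likeness to HSFA2, where SIZ1 also lay below COL, favours such a separation.

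**Figure D4:**
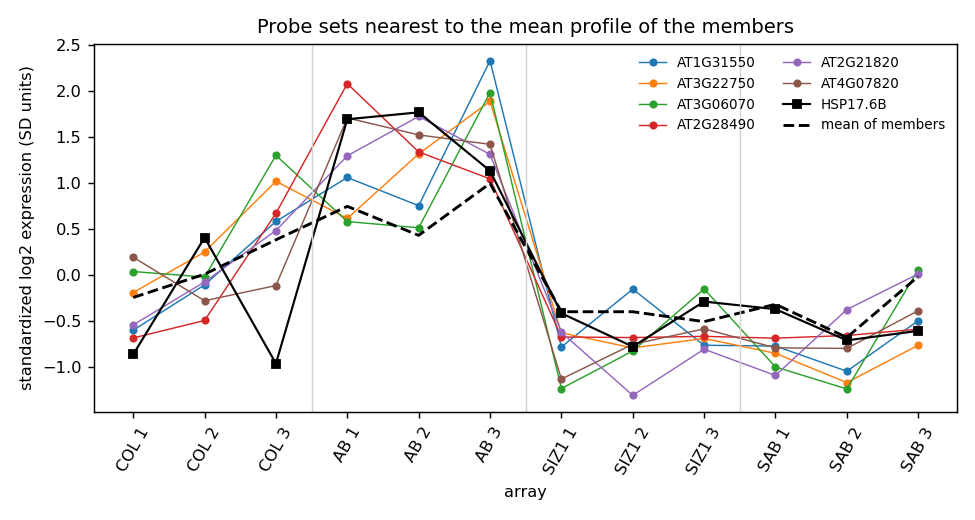
Standardized log2 expression (y axis, SD units) on the 12 arrays (x axis) of the 6 probe sets nearest to the mean profile of the members, with HSP17.6B (black squares) and that mean profile (dashed); lines only join the values of 1 probe set. The mean profile lies at 0.75, 0.43 and 0.996 in AB 1 to 3, at 0.38 in COL 3 and at or below 0.01 on every other array.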

How the data were processed

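ATH1 arrays carried 1 sample each. For each probe set the authors deposited a log2 expression value, made with GCRMA per the submitters' processing notes. Neither its version nor a joint run over all arrays is stated there. The log2 scale was read from the range. Tests omitted the 64 controls. The number of arrays limits the precision.

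The platform's table gave the genes, and a RefSeq table (TAIR10.1) their current symbols: 13513 probe sets name 1 gene, 503 several, and 8730 are unnamed here, among them 5 members. Coordinates and sequences were not used here.

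limma 3.58.1 in R 4.3.3 fitted 1 term per genotype to all 12 arrays (lmFit, eBayes), with 8 residual and 1.31 prior degrees of freedom. Tests were two-sided, with Benjamini-Hochberg adjustment over 22746 probe sets, and called means an adjusted p under 0.05. The fit was tested on simulated data. SE is limma's moderated standard error. A positive difference means higher in the genotype named first.

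The members and lists were chosen with earlier results of these data known. Of the other heat shock loci, those called against COL and up to 4 per list with the highest means were to be named.

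Same-numbered arrays of different genotypes deviated from their genotype means together (r of 0.102 to 0.451 in 18 pairs). The median of -0.125 in 36 other pairs follows in part from centring on the genotype means. Same-numbered arrays thus share something, and what they share was not tested. The reported fit did not use the numbers. The alternatives were quantile normalization, median centring, the replicate number as a block, brighter probe sets alone, the compared genotypes alone, RNA amount as a covariate, eBayes with trend and robust, and arrays left out.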

Additional observations from a re-analysis of the deposited data

How the results depend on the processing

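The counts of called members were recomputed under 20 alternatives, 19 for the departure of SAB from the sum. They stayed at 0 for the departure, for SAB against SIZ1 and for both of these lines against COL. Leaving out 1 array gave 0 to 1 called members in AB against COL (1 without COL 2), 1 to 2 in SAB against AB and 1 to 2 in AB against SIZ1. With brighter probe sets alone the count was 1 in AB against COL (HSP17.6B, limma adjusted p = 0.04999) and 2 in AB against SIZ1 (with HSP90.1, 0.0301). Without AB 1 and AB 2 it was 2 in SAB against AB and 2 in AB against SIZ1, HSP90.1 and HSP101 in both, with AB 3 as the lone AB array, assumed to vary like the other genotypes. With RNA amount as a covariate, which was higher on every SAB array than on any other array, it was 0 in SAB against AB. The causes were not tested.

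Of 49 differences of members, 21 changed sign under an alternative, none of them called, and none larger than 0.12. With RNA amount as a covariate HSP17.6B in SIZ1 against COL became 0.0097 and HSP90.1 in SAB against COL 0.11. Over the arrays left out 1 at a time, HSP17.6B ranged from -0.077 to 0.12 in SIZ1 and from -0.10 to 0.10 in SAB against COL, ROF2 from -0.16 to 0.22 and from -0.30 to 0.080, and HSFA2 in AB from -0.18 to 0.11. The replicate block left every call of a member as it was, with HSP17.6B at 0.58 in AB against COL (limma adjusted p = 0.0826), 0.59 in AB against SIZ1 (0.0177) and -0.61 in SAB against AB (0.0168). Counts over all probe sets moved more. Over the alternatives, against the reported counts, AB against COL had 0 to 74 calls (14 reported), SIZ1 against COL 131 to 1167 (732), SAB against COL 144 to 1173 (731), SAB against SIZ1 0 to 5 (0), SAB against AB 161 to 1552 (1007), AB against SIZ1 269 to 1745 (1187) and the departure 0 to 12 (0), with the highest counts from the replicate block except for SAB against SIZ1. The call of HSP17.6B in AB against SIZ1 held under 19 of 20 alternatives and that in SAB against AB under 18.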
